A study of Mus musculus with 5 samples.

Results

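The genes described here encode the enzymes of serine synthesis and of folate-dependent one-carbon metabolism, with the mitochondrial aldehyde dehydrogenase Aldh1b1. They were read in mouse embryonic hearts of stage E10.5, when the looped tube is forming its chambers. Of 10 listed genes, 9 had a probe set carrying their symbol among 23279 named genes. Phgdh, the dehydrogenase that opens serine synthesis, was not analysed here. Each of the 9 had 1 probe set, and all 9 passed the filter on dim genes, a mean log2 level of at least 4.44. The genes were listed with the knockout minus control result of these same arrays known, so their differences are given as a description, with no test.

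The study comprised 2 arrays of hearts with the genotype KO and 3 arrays of Control hearts, all untreated and all of stage E10.5. The series title names Lrrfip2, whose product binds the actin-remodelling protein Flii, and asks about its role in the response to low oxygen. The labels do not give the strain, the allele, the cells in which it was deleted, whether controls were wild type or heterozygous, or whether a sample was 1 heart or a pool. The spread between arrays may therefore be technical in part.

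Cells make serine from the glycolytic intermediate 3-phosphoglycerate by the successive actions of Phgdh, Psat1 and Psph. Serine hydroxymethyltransferases split serine into glycine and a one-carbon unit held on tetrahydrofolate, Shmt2 in mitochondria and Shmt1 in the cytosol. In mitochondria Mthfd2 and Mthfd1l carry the unit on to formate, which leaves for the cytosol, where Mthfd1 reloads it onto folate for purine and thymidylate synthesis. The transcription factor ATF4, which is translated when amino acids run short or mitochondria are stressed, is a known activator of the serine and mitochondrial genes.

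The deposited values are log2 levels after RMA, and every difference below is knockout minus control on that scale. Lrrfip2 was at 6.36 and 6.22 in the KO arrays and at 7.33, 8.07 and 8.08 in the Control arrays, so the groups did not overlap. The labels do not say which part of the gene was deleted, and this probe set may lie outside it. Pairwise correlations between arrays over all genes were 0.986 to 0.996. The 12 heart muscle markers averaged 11.12 to 11.29 in KO and 11.27 to 11.29 in Control arrays. Their median shift from the Control mean was -0.01 in KO replicate 1 and -0.18 in KO replicate 2. Myh6 (-0.22), Tnni3 (-0.25), Tnni1 (-0.20), Myl2 (-0.08) and Nkx2-5 (-0.37) were lower without overlap, as were 13.1% of genes passing the filter. Myl7 (0.08) was higher without overlap, as were 8.18%, and the remaining muscle markers overlapped. The KO arrays also stood apart from each other in other markers. KO replicate 2 carried liver and gut endoderm transcripts, with 18 of 19 listed genes measured and a mean level of 7.54, against 4.31 in KO replicate 1 and 4.27 to 4.33 in the Control arrays. KO replicate 1 had the highest mean of endothelial markers (8.52, against 8.11 in KO replicate 2 and 7.92 to 8.19 in Control arrays). On that array Tek (-0.04), Tie1 (-0.004) and Nfatc1 (-0.24) still lay below the Control mean. It also had the highest mean of macrophage and other blood cell markers (5.49, against 4.89 in KO replicate 2 and 4.83 to 4.90 in Control arrays). Of 12 such genes 11 were measured, and 8 passed the filter on dim genes, which Ptprc, C1qc and Mrc1 did not. The largest shifts were those of Tyrobp (2.65), Fcer1g (1.19) and Ptprc (1.13). C1qa (-0.38) and Cd68 (-0.02) lay below the Control mean on KO replicate 1, and Mrc1 was equal to it. Erythroid markers averaged 8.22 to 8.43 in KO and 8.22 to 9.63 in Control arrays. In whole hearts fewer cells of a type and less RNA per cell cannot be told apart. The part of these markers in the results below was not tested, and each result is therefore given for KO replicate 1 and KO replicate 2 separately.

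**Figure D1:**
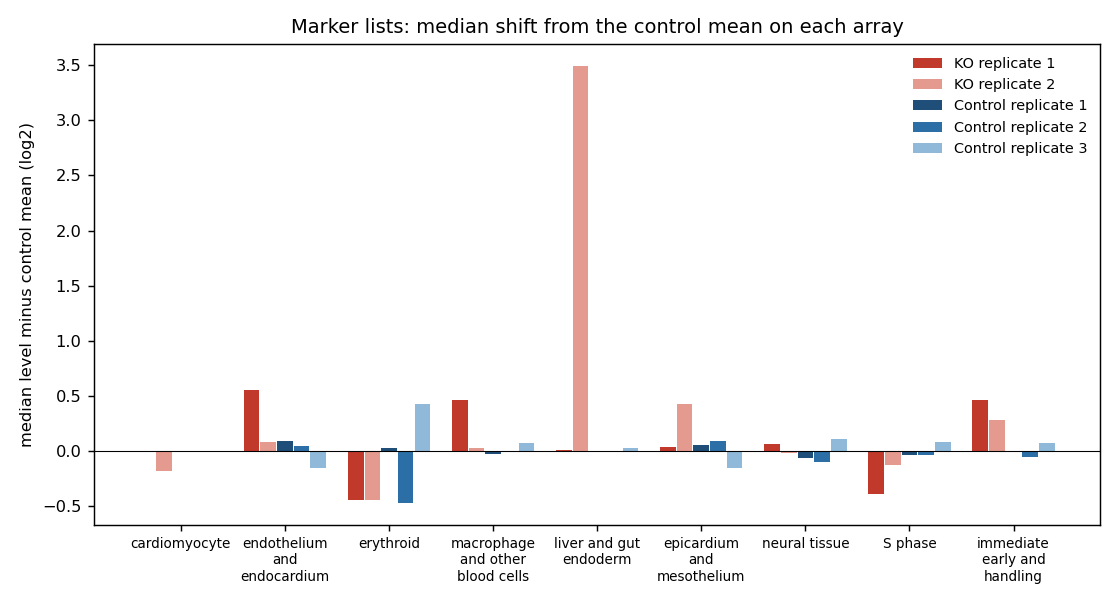
Median shift of each marker list from the mean of the 3 Control arrays (vertical axis, log2) on each array, with the 2 KO arrays to the left of the Control arrays in every group of bars. The endoderm bar of KO replicate 2 stands at 3.49, whereas KO replicate 1 has the endothelial (0.55) and macrophage (0.46) bars and the lowest S phase bar (-0.39).

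Among the 9 measured genes, 6 had higher levels in both KO arrays than in any Control array, 1 had lower levels in both, and 2 overlapped. The 6 were the serine enzymes Psat1 and Psph and the 4 mitochondrial one-carbon enzymes Shmt2, Mthfd2, Mthfd1l and Aldh1l2. The gene lower in both was Aldh1b1, and those that overlapped were the cytosolic enzymes Shmt1 and Mthfd1. The median difference over the 9 was 0.63, in a range of -0.73 to 1.17, beside a median of -0.02 over the 13967 genes tested. Over all genes tested, 8.18% were higher without overlap and 13.1% lower without overlap, 21.3% in all. Tied values were present in 54.8% of the genes tested and in 1 of the 9. With tied genes left out, 39.7% of 6307 genes did not overlap. The share was 31.4% with quantile normalization repeated and 29.8% with each array centred on its median. Since the 9 genes were chosen on this contrast, nothing is read from their count. No gene of the 13967, and so none of the 9, passed an adjusted p of 0.05 in limma (0% called). The counts at an unadjusted p under 0.05 were 460 higher (3.29%) and 767 lower (5.49%).

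**Figure D2:**
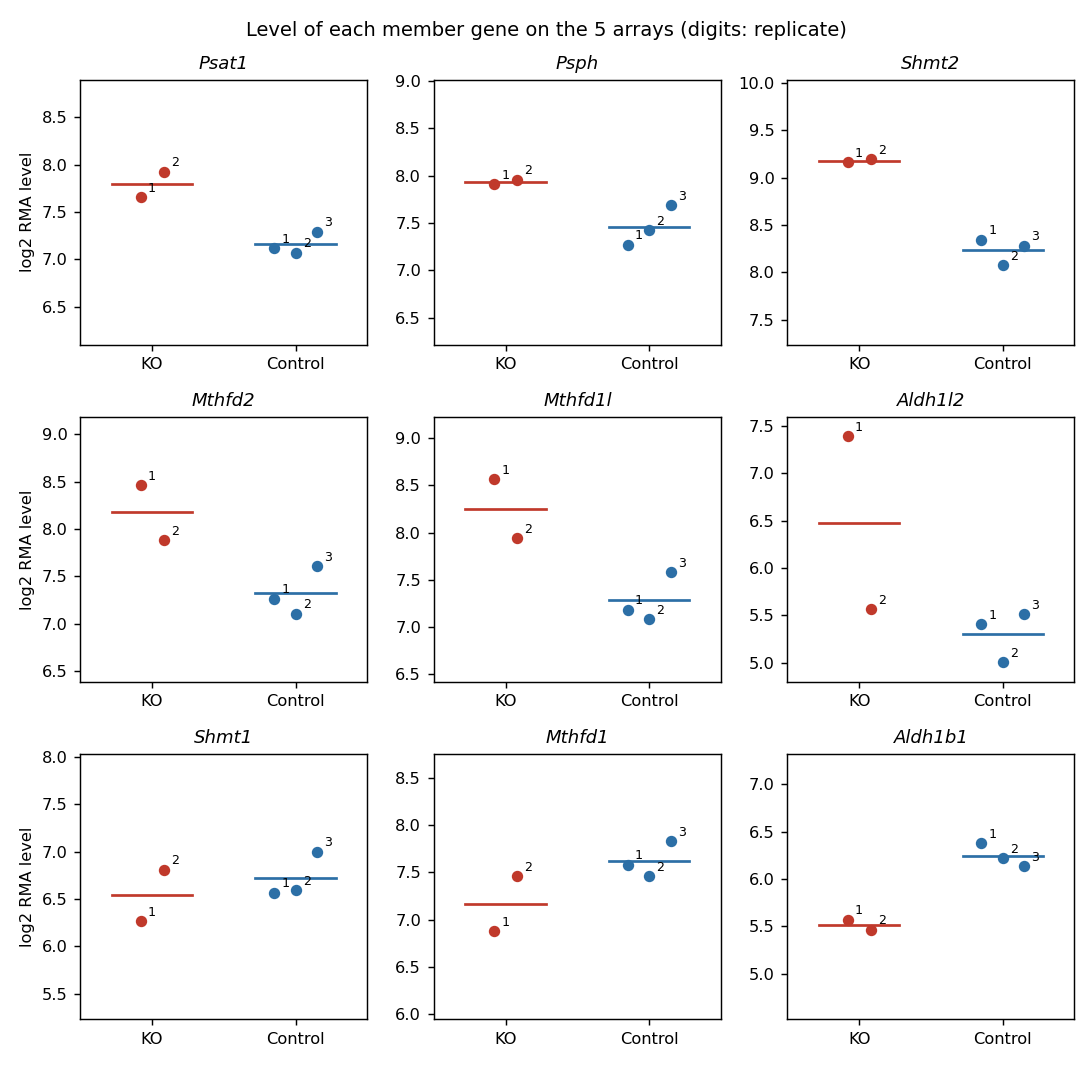
Log2 RMA level (vertical axis, the same span of 2.8 in every panel) of the 9 measured genes on the 2 KO arrays (left, red) and the 3 Control arrays (right, blue), with replicate numbers beside the points and bars for group means. Psat1, Psph, Shmt2, Mthfd2, Mthfd1l and Aldh1l2 lie higher in both KO arrays, Aldh1b1 lies lower, and Shmt1 and Mthfd1 overlap.

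The 2 measured enzymes of serine synthesis were both higher in the knockout hearts, on each KO array. Psat1, the aminotransferase that makes phosphoserine, was at 7.66 and 7.93 in KO replicates 1 and 2, and at 7.12, 7.07 and 7.29 in Control replicates 1, 2 and 3. The lower KO value lay 0.37 above the highest Control value. Its difference was 0.63 ± 0.12 (SE from the limma fit), a 1.55-fold higher level, with 0.50 in KO replicate 1 and 0.77 in KO replicate 2. Psph, the phosphatase that releases free serine, was at 7.91 and 7.96 in KO replicates 1 and 2, against 7.27, 7.42 and 7.69 in Control replicates 1, 2 and 3. Its KO values lay 0.04 apart, while the Control values spanned 0.42, and the gap between the groups was 0.23. The difference of 0.47 ± 0.14 (SE) was the smallest of the 6 genes that were higher without overlap. Together they give the readings of the serine branch beyond its opening step.

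The promoters of both serine genes are shown because they moved in the same direction on both KO arrays. RefSeq windows (GRCm38.p6) from 250 bases before to 50 after the gene start matched 8 of the 9 genes by gene number. They are printed 5′ to 3′ on the strand of the gene, with capitals for ACGTG or its reverse complement CACGT, the core of the element bound by hypoxia-inducible factors. Psat1 has 2 listed starts, and the window with a match is chr19:15924573-15924872, minus strand. The Psph window is chr5:129787204-129787503, minus strand.
Psat1: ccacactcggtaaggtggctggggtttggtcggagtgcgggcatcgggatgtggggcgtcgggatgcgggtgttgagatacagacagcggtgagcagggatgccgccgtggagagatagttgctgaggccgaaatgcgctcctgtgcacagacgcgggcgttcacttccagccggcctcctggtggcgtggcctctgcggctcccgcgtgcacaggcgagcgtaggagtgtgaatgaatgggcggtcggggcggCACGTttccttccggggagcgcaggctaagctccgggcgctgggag
Psph: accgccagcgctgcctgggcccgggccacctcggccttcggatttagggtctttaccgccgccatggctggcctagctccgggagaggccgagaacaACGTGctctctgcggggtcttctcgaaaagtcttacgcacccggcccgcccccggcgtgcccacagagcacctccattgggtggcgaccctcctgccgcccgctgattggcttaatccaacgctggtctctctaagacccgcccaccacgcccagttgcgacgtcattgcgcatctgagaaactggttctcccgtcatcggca
The match in Psat1 lies at bases 4 to 8 after the gene start, and that in Psph 153 to 149 bases before it.

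The mitochondrial one-carbon enzymes gave the largest differences, with a median of 0.96 over 4 genes. Shmt2, which feeds the mitochondrial folate pool from serine, was at 9.17 and 9.20 in KO replicates 1 and 2, and at 8.35, 8.08 and 8.28 in Control replicates 1, 2 and 3. Its KO arrays differed by 0.03, and the gap of 0.82 to the highest Control array was the widest among the 9 genes. The difference was 0.95 ± 0.10 (SE), a 1.93-fold higher level, and it was 0.93 in KO replicate 1 alone and 0.96 in KO replicate 2 alone.

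Mthfd2 and Mthfd1l, which act one after the other on the way to formate, were higher in both KO arrays and more so in KO replicate 1. Mthfd2, the mitochondrial methylenetetrahydrofolate dehydrogenase and cyclohydrolase, was at 8.47 and 7.88 in KO replicates 1 and 2, against 7.26, 7.10 and 7.61 in Control replicates 1, 2 and 3. Mthfd1l, the mitochondrial formyltetrahydrofolate synthetase that releases formate, was at 8.56 and 7.94 in KO replicates 1 and 2, and at 7.18, 7.08 and 7.58 in Control replicates 1, 2 and 3. Control replicate 3 was the highest and Control replicate 2 the lowest control for both genes. The differences were 0.85 ± 0.25 (SE) for Mthfd2 and 0.97 ± 0.26 (SE) for Mthfd1l. On KO replicate 1 they were 2.20-fold and 2.43-fold above the Control mean, and on KO replicate 2 they were 1.47-fold and 1.58-fold above it.

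Aldh1l2, the mitochondrial formyltetrahydrofolate dehydrogenase that burns one-carbon units to carbon dioxide while making NADPH, rested on 1 array. It was at 7.39 and 5.56 in KO replicates 1 and 2, against 5.41, 5.004 and 5.51 in Control replicates 1, 2 and 3. KO replicate 2 lay 0.05 above the highest Control array, less than the Control range of 0.50. The mean difference was 1.17 ± 0.61 (SE), made up of 2.08 in KO replicate 1 (4.24-fold) and 0.26 in KO replicate 2 (1.19-fold). KO replicate 1 is also the array with the highest median shifts of endothelial and macrophage markers, 0.55 and 0.46, though not every such marker was higher on it. The part of these markers in this value was not tested.

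The promoters of Shmt2, which had the widest gap between the groups, and of Mthfd1l, which differed between the KO arrays, are shown on the same terms. The Shmt2 window is chr10:127522395-127522694, minus strand, and the Mthfd1l window is chr10:3972825-3973124, plus strand.
Shmt2: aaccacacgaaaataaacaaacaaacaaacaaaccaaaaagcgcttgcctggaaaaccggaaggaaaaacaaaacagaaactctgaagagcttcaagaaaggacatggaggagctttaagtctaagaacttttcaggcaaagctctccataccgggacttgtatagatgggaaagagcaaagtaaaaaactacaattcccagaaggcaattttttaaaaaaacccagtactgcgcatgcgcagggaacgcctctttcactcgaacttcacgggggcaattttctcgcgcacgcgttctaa
Mthfd1l: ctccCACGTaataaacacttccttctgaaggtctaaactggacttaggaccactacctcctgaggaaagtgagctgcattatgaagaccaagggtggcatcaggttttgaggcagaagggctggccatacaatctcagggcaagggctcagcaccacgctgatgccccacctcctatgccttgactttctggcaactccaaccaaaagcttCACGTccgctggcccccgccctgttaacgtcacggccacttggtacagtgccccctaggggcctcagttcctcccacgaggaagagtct
Mthfd1l held 2 matches to ACGTG, 246 to 242 and 39 to 35 bases before its start, and Shmt2 held none. Searched on both strands, ACGTG was present in 3 of the 8 genes, Psat1, Psph and Mthfd1l. By window it was in 3 of the 9 windows of these genes and in 19.6% of all 32851 RefSeq windows of 300 bases. The other Psat1 window and the windows of Mthfd2, Shmt1, Mthfd1 and Aldh1b1 held none and are not printed, so the printed windows over-represent matches. The amino acid response element recognised by ATF4 with C/EBP partners, written TGATGNAA, was in 0 of the 8 genes and in 3.97% of all windows. The E-box CACGTG, which contains ACGTG, was in 0 of the 8 and in 7.15% of all windows. A match describes letters in these windows, and a window without one leaves introns and more distant sequence unread.

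For the cytosolic counterparts the groups overlapped. Shmt1, the cytosolic hydroxymethyltransferase, was at 6.26 and 6.81 in KO replicates 1 and 2, and at 6.57, 6.59 and 7.002 in Control replicates 1, 2 and 3. KO replicate 1 lay below every Control array and KO replicate 2 inside their range. The difference was -0.18 ± 0.24 (SE), with -0.46 in KO replicate 1 and 0.09 in KO replicate 2. Mthfd1, the cytosolic enzyme that holds the dehydrogenase, cyclohydrolase and synthetase activities in 1 protein, was at 6.87 and 7.46 in KO replicates 1 and 2, against 7.58, 7.46 and 7.83 in Control replicates 1, 2 and 3. KO replicate 2 had exactly the value of Control replicate 2, 1 of the ties that 54.8% of the genes tested showed. The difference was -0.45 ± 0.22 (SE), with -0.75 in KO replicate 1 and -0.16 in KO replicate 2. S phase markers, all 14 measured, also had a lower mean in KO replicate 1 (8.11) than in KO replicate 2 (8.33), against 8.45 to 8.55 in the Control arrays. Of these markers Mcm6, Ccne2 and Cdc45 had the opposite order of the KO arrays. The part of the S phase markers in the Shmt1 and Mthfd1 values was not tested.

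Aldh1b1 was lower in both KO arrays and is the only gene of the 9 whose groups separated downward. It encodes a mitochondrial aldehyde dehydrogenase that acts on acetaldehyde and retinaldehyde and carries no folate activity. It was at 5.57 and 5.47 in KO replicates 1 and 2, and at 6.38, 6.22 and 6.14 in Control replicates 1, 2 and 3. The KO arrays lay 0.11 apart and the Control arrays spanned 0.24, with a gap of 0.56 between the groups. The difference was -0.73 ± 0.09 (SE), or 1.66-fold lower, with -0.67 in KO replicate 1 and -0.78 in KO replicate 2.

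Set against each other, the KO arrays were close for some of these genes and apart for others. Shmt2, Psph and Aldh1b1 differed by at most 0.11 between the KO arrays. Aldh1l2, Mthfd1l and Mthfd2 were higher in KO replicate 1, by 1.83, 0.62 and 0.58. Mthfd1, Shmt1 and Psat1 were higher in KO replicate 2, as KO replicate 1 minus KO replicate 2 was -0.58, -0.55 and -0.27. The mitochondrial enzymes had a median of 1.21 above the Control mean in KO replicate 1 and of 0.61 in KO replicate 2. The cytosolic pair had a median of -0.60 in KO replicate 1 and of -0.04 in KO replicate 2. With only 1 array on each side of this comparison, it has no replicate check.

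**Figure D3:**
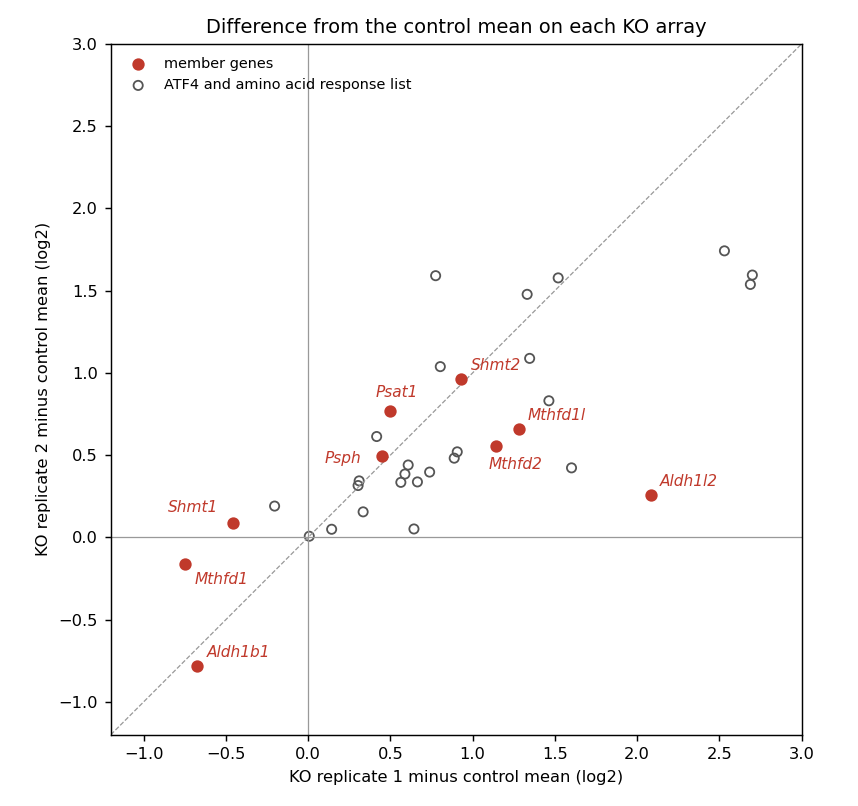
Difference from the Control mean on KO replicate 1 (horizontal axis, log2) against that on KO replicate 2 (vertical axis, log2) for the 9 measured genes (filled red) and the 25 tested genes of the ATF4 and amino acid response list (open grey); the dashed line marks equal values. Shmt2 and Psph lie near the line, Aldh1l2 lies far to its right at 2.08 and 0.26, and Aldh1b1 lies at -0.67 and -0.78.

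Other genes of the pathway were read from 9 lists, which held 105 distinct tested genes. In the same limma fit an unadjusted p under 0.05 went with higher levels for 22 of these, beside 3.29% over all genes. It went with lower levels for 6, beside 5.49%, while 0 passed an adjusted p of 0.05. Most of the 22 came from the ATF4 list. In the remaining lists few genes stood out, and their medians lay between -0.21 and 0.06, beside -0.02 over all genes tested. Of the 13967 genes tested, 6223 were higher and 7744 lower in the knockout, against which the lists' counts below are set. These counts move with the arrays used: without KO replicate 2, genes at an unadjusted p under 0.05 numbered 3818 in place of 1227 over all genes.

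Genes of ATF4 and of the amino acid response ran in the direction of the serine and mitochondrial enzymes. Of 28 listed, 25 were tested, and 24 had higher levels in the knockout. Without overlap 21 were higher, beside 8.18% over all genes tested. An unadjusted limma p under 0.05 was reached by 19, all higher, beside 3.29% over all genes tested. The list's median was 0.57, with 0.74 in KO replicate 1 and 0.44 in KO replicate 2. The immediate early and handling list, all 12 genes measured, also had a higher median in both KO arrays. Its median shifts were 0.47 in KO replicate 1 and 0.28 in KO replicate 2. Its mean levels were 6.53 and 6.30, against 5.83 to 6.10 in the Control arrays. Ier2 was below the Control mean on both KO arrays, Fosb and Jun on KO replicate 1 only, and Egr2 on KO replicate 2 only. Atf3 is on this list and on the ATF4 list. The part of the handling genes in the ATF4 list's values was not tested. Earlier results of these arrays had already shown ATF4-linked genes higher, so the count is not independent evidence. Atf4 itself was at 10.71 and 10.74 in the KO arrays and at 10.43, 10.39 and 10.36 in the Control arrays, a difference of 0.33 ± 0.04 (SE; limma adjusted p = 0.333). Cebpg, a leucine zipper partner of ATF4, differed by 0.45, and Atf5 by 0.25. Pck2, the mitochondrial phosphoenolpyruvate carboxykinase, differed by 0.69, and Aldh18a1, which opens proline synthesis in mitochondria, by 0.52. The asparagine synthetase Asns was at 10.04 and 9.41 in KO replicates 1 and 2, against 8.46, 8.36 and 8.91 in Control replicates 1, 2 and 3. Like Mthfd2 and Mthfd1l, it was higher in KO replicate 1 than in KO replicate 2 and highest among controls in Control replicate 3. Of the 25 tested genes of the list 16 had this order of the KO arrays, beside 6113 of 13967 over all genes. Cth, Sesn2, Slc7a5, Ddit4, Chac1 and Atf4 were among those with the opposite order. The amino acid carriers Slc7a3 (2.11), Slc3a2 (0.71), Slc7a5 (0.52) and Slc7a1 (0.31) were also among the 19. So were the stress genes Chac1 (1.55), Ddit4 (1.405), Trib3 (1.22), Sesn2 (0.92), Eif4ebp1 (0.50) and Herpud1 (0.49), with Vldlr (2.15), Stc2 (2.14) and Cth. The limma adjusted p of these 19 genes was 0.287 or more.

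Among genes that move or use serine few reached an unadjusted p under 0.05. The 15 tested transport genes, 6 of them higher and 9 lower, had a median of -0.02. The neutral amino acid exchanger Slc1a4, which carries serine, was at 5.95 and 6.19 in the KO arrays, against 5.44, 5.57 and 5.29 in the Control arrays (difference 0.64 ± 0.12, SE). Sfxn3, a sideroflexin of the inner mitochondrial membrane, was at 5.60 and 5.90 in KO and at 6.30, 6.17 and 6.04 in Control arrays (-0.42 ± 0.13, SE). Slc1a4 and Sfxn3 were the only transport genes with an unadjusted limma p under 0.05, beside 3.29% higher and 5.49% lower over all genes. These counts changed with either KO array left out, which leaves 1 KO array. Among 8 tested genes of serine use, 3 were higher and 5 lower. Ptdss2, which makes phosphatidylserine by base exchange, was the only one with an unadjusted limma p under 0.05, with a difference of -0.32.

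The folate cycle beyond the listed genes showed 0 of 12 tested genes at an unadjusted limma p under 0.05, with 4 higher, 8 lower and a median of -0.07. That count changed with either KO array left out, which leaves 1 KO array. The smallest p belonged to the folate carrier Slc46a1 (-0.25) and thymidylate synthase, Tyms (-0.34). The paralogues Mthfd2l (-0.05) and Aldh1l1 (0.04), picked out after their values were seen, lay near 0, where Mthfd2 and Aldh1l2 stood at 0.85 and 1.17. Glycine cleavage and choline-derived supply of one-carbon units likewise had 0 of 9 tested genes at that level, with Aldh7a1 at 0.14 and Sardh at -0.10. This count too changed with either KO array left out. In the methionine cycle and transsulphuration, 6 of 10 tested genes were higher and 4 lower. Cth, which cleaves cystathionine to cysteine and is also on the ATF4 list, was at 6.06 and 6.88 in the KO arrays, against 5.03, 5.34 and 5.49 in the Control arrays (1.18 ± 0.30, SE). Mtrr, which reactivates methionine synthase, had a difference of -0.21 ± 0.07 (SE). Cth and Mtrr were the genes of this list at an unadjusted limma p under 0.05, beside 3.29% higher and 5.49% lower over all genes. The counts of this list also changed with either KO array left out.

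Purine and thymidylate synthesis, which takes up the one-carbon units, had 16 tested genes, of which 13 were lower and 3 higher in the knockout, beside 7744 lower of 13967 over all genes. The median was -0.20, and 2 had an unadjusted limma p under 0.05 with lower levels, beside 5.49% over all genes. These were Prps1, which makes phosphoribosyl pyrophosphate, at 7.76 and 7.76 in KO and 8.01, 8.13 and 7.999 in Control arrays, and the thymidine kinase Tk1, with a difference of -0.25. The count of 2 changed with KO replicate 2 left out, which leaves 1 KO array. The list's median was -0.27 in KO replicate 1 and -0.07 in KO replicate 2. It moved with the S phase markers, whose median shift was -0.39 in KO replicate 1 and -0.12 in KO replicate 2, and whose part in it was not tested.

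Relatives of Aldh1b1 had a median near 0. The median of 14 tested aldehyde dehydrogenases outside the listed genes was 0.06, with 11 higher and 3 lower, beside 6223 higher of 13967 over all genes. The 3 with an unadjusted limma p under 0.05 were all higher (3.29% over all genes): Aldh2 (0.30), the main mitochondrial acetaldehyde dehydrogenase, Aldh3b2 (0.28) and Aldh18a1 (0.52), also on the ATF4 list. Without overlap 4 of the 14 were higher and 1 lower, beside 8.18% and 13.1% over all genes. The lower one was Aldh1a1, named after its values were seen. It was at 5.91 and 6.38 in KO and at 6.62, 6.49 and 6.83 in Control arrays (-0.50 ± 0.19, SE). Among the glycolytic enzymes beside 3-phosphoglycerate 3 were tested, and Bpgm, an enzyme of red cells that makes bisphosphoglycerate, was at 4.75 and 4.99 in KO and at 5.89, 5.41 and 6.35 in Control arrays. The erythroid markers were also highest in Control replicate 3, at a mean level of 9.63, and their part in the Bpgm value was not tested.

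**Figure D4:**
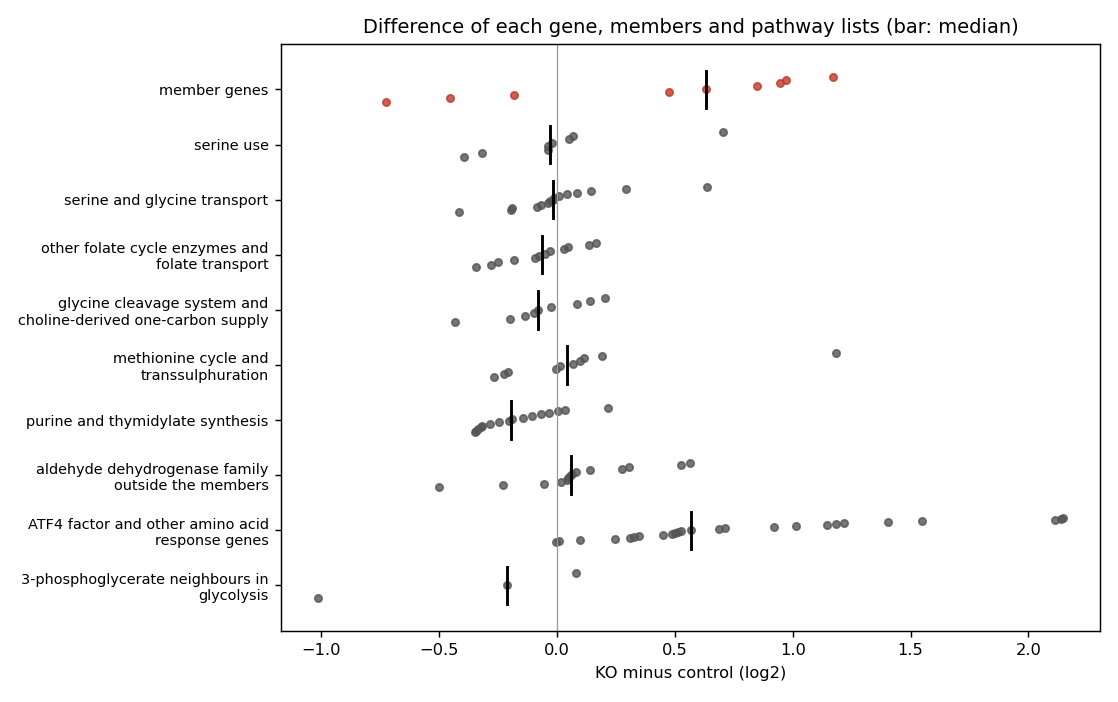
Knockout minus control difference (horizontal axis, log2) of each tested gene, with the 9 measured genes on the top line, the pathway lists below and a black bar at each median. The ATF4 list has a median of 0.57 and the 9 genes one of 0.63, purine and thymidylate synthesis has -0.20, and the folate and glycine lists sit near 0.

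The genes nearest to Shmt2 and to Aldh1b1 over the 5 arrays were sought by the root mean square distance between levels taken from the Control mean. For Shmt2 these were the mucin Muc2 (0.07), the stress protein Sesn2 (0.10), the apolipoprotein Apoe (0.12), the copper transporter Atp7b (0.13) and the histone demethylase Kdm3a (0.13). For Aldh1b1 they were the muscle glycogen phosphorylase Pygm (0.06), the cardiac kinase Tnni3k (0.09), the Z-disc protein Pdlim3 (0.10), the phosphatase inhibitor Ppp1r1a (0.10) and the aldo-keto reductase Akr1b8 (0.10). Kdm3a was at 9.10 and 8.82 in the KO arrays and at 8.17, 7.99 and 7.93 in the Control arrays. Pygm was at 7.498 and 7.43 in the KO arrays and at 8.28, 8.03 and 8.12 in the Control arrays. Such likeness over 5 arrays describes these values only.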

How the data were processed

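Gene expression was read on Affymetrix arrays, labelled with the GeneChip WT Plus kit per the labels' protocols. The authors deposited log2 levels made with Affymetrix Expression Console and RMA, per the submitters' processing notes; for versions, settings and genome build the sources used here give nothing. RMA brings the probe intensities of all arrays to 1 distribution before they are summarized, so a shift shared by most genes cannot be seen. The median gene level still ranged from 5.098 in KO replicate 1 to 5.139 in KO replicate 2. No scanner values were used. Of 24479 probe sets 23281 had 1 symbol, 0 several and 1198 none; 23156 gene numbers were found in RefSeq (GRCm38.p6), which gave current symbols. The brightest set per gene was kept, and genes under the 40th percentile of mean level (4.44) were left out, leaving 13967. KO and Control, numbered in accession order, were compared in limma 3.58.1 (R 4.3.3; lmFit, eBayes, two-sided, Benjamini-Hochberg), with no covariate; no permutation p of 2 against 3 arrays can fall below 0.1. Precision is limited by the number of arrays. The fit was tested on simulated data.

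The listed genes and all lists were chosen with earlier results of these data known. Genes named are the listed genes, Lrrfip2, list genes with an unadjusted p under 0.05 (otherwise the 2 of smallest p), the 5 nearest to Shmt2 and Aldh1b1, and markers. Mthfd2l, Aldh1l1, Aldh1a1, Sars and Sars2 fall outside this rule and were chosen after their values were seen. Alternatives concerned the filter, variance prior, weights, normalization, centring, probe sets, ties and each array.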

Additional observations from a re-analysis of the deposited data

How the results depend on the processing

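No paired analysis was possible because KO and Control samples share no sample number in the labels. The count of genes higher without overlap was 6 in each fit except under the filter at the 60th percentile, where Aldh1l2 was not tested and 5 were counted. The number lower without overlap was 2 with each array centred on its median, where Mthfd1 joined Aldh1b1, and ranged from 1 to 3 when 1 array was left out: it was 3 without KO replicate 2 and 2 without Control replicate 2. The median difference of the 9 ranged from 0.50 to 0.74 over all alternatives. Aldh1l2 was at 0.26 without KO replicate 1 and 2.08 without KO replicate 2, Mthfd1 at -0.16 and -0.75, and Shmt1 at 0.09 and -0.46. The number of all genes past an adjusted p of 0.05, 0 in the reported fit, was 7 with tied genes left out and 0 to 983 when 1 array was left out, the 983 without KO replicate 2 and 9 without KO replicate 1; the array that remains is then assumed to vary like the controls. At an unadjusted p under 0.05 the reported 1227 genes became 3818 without KO replicate 2, 2374 without KO replicate 1, 772 and 790 without Control replicates 1 and 2, and 783 with array weights. Genes without overlap, 2972 as reported, numbered 3765 to 8442 when 1 array was left out, since fewer arrays overlap less. List genes higher at an unadjusted p under 0.05, 22 as reported, numbered 16 to 25 over all alternatives. Those lower, 6 as reported, were 3 with array weights and 2 to 24 when 1 array was left out: 24 without KO replicate 2, 3 without Control replicate 1 and 2 without Control replicate 2. Genes without overlap also numbered 4389 with quantile normalization repeated and 4157 with each array centred on its median. The cause of these changes was not tested.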

Other observations

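Among the 3 Control arrays, Control replicate 3 had the highest value for 7 of the 9 genes, all but Shmt2 and Aldh1b1, and Control replicate 2 the lowest for 6 of the 9. Erythroid markers, 7 of 9 listed genes measured, had mean levels of 8.22 and 8.43 in KO replicates 1 and 2, and of 8.90, 8.22 and 9.63 in Control replicates 1, 2 and 3. Epicardial and mesothelial markers averaged 7.67 to 7.97 in the KO arrays and 7.44 to 7.63 in the Control arrays. Their median shift was 0.04 in KO replicate 1 and 0.43 in KO replicate 2, against 0.06, 0.09 and -0.16 in Control replicates 1, 2 and 3. Krt19 was at 9.66 and 8.72 in the KO arrays, against 7.36 to 7.70 in the Control arrays. Tcf21, Upk3b, Upk1b and Tbx18 lay below the Control mean in KO replicate 1. Upk1b lay below it in KO replicate 2 as well (-0.50) and was lower without overlap, as were 13.1% of genes tested.

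The serine-charging enzymes are given as a pair picked out after their values were seen. Sars, the cytosolic seryl-tRNA synthetase, was at 10.06 and 9.15 in KO replicates 1 and 2, against 8.72, 8.68 and 9.30 in Control replicates 1, 2 and 3, so the groups overlapped. Sars2, the mitochondrial one, was at 6.42 and 6.76 in KO replicates 1 and 2, against 7.12, 6.99 and 6.85 in Control replicates 1, 2 and 3 (difference -0.40 ± 0.14, SE). Sars was higher in KO replicate 1 than on the other arrays, as Mthfd2, Mthfd1l and Aldh1l2 were.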
